A study of Drosophila melanogaster with 9 samples.

Results

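The chromatin of *dpp* (FBgn0000490), *wg* (FBgn0284084) and *hh* (FBgn0004644), the *Drosophila* genes of the signalling ligands Dpp, Wg and Hh, was examined in *bam* testis and in S2 cells. Each gene was taken as a fixed interval of the dm3 build: chr2L:2420001-2465000 for *dpp* (45 kb), chr2L:7295001-7325000 for *wg* (30 kb) and chr3R:18950001-18970000 for *hh* (20 kb). Cut into 500-bp tiles, the intervals held 90, 60 and 40 tiles, 190 of the 240731 tiles on the 6 arms 4, X, 2L, 2R, 3L and 3R. Gene models of dm3 were not used here, so a position inside an interval is given by its coordinates and was not assigned to an exon, an intron or a start site. The order of genes was looked up in the RefSeq annotation of another build (Release 6), where *wg* lies between *Wnt4* on its low-coordinate side and *Wnt6* and *Wnt10* on its high-coordinate side, and *hh* has *CG31457* before it and *unk* after it.

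Dpp is a secreted ligand of the BMP branch of the TGF-beta family, Wg is the founding *Drosophila* Wnt protein, and Hh is the *Drosophila* hedgehog ligand. They pattern embryonic segments and imaginal discs, and in the testis niche BMP signalling to germline stem cells represses *bam*, while Hh from the hub signals to the somatic cyst stem cells. Genes of this kind are classical targets of the Polycomb group, whose PRC2 complex places the repressive mark H3K27me3. By contrast, H3K4me3 marks active start sites, H3K36me3 marks transcribed gene bodies, and RNA polymerase II (Pol II) can be found on genes before or during transcription.

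The *bam* testis samples were testes of *bam1*/*bam114-97* mutant males, in which differentiation is blocked, so that undifferentiated germ cells accumulate, with somatic cells also present. About 200 pairs of testes were pooled for each chromatin immunoprecipitation (ChIP). S2 cells are a cultured *Drosophila* line of embryonic, blood-cell-like origin (ATCC), harvested while growing exponentially. H3K27me3, H3K4me3, H3K36me3 and Pol II were measured by ChIP-seq in both samples and RNA by RNA-seq in S2 cells, with 1 library each. Markers of germ cells, somatic cells and S2 cells could not be looked up without gene positions, so the labelled samples were not checked against them.

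The 8 ChIP libraries held between 1250028 and 3729366 reads after limiting identical reads to 3 copies, and the RNA-seq library 7289715. Densities are in RPM per kb, the reads in 1 kb for each 1000000 kept reads, with an exact 95% Poisson interval in brackets. Ratios of densities have an exact conditional binomial interval. Both take in counting error alone, since the reads carry no molecular identifiers and copies of a molecule cannot be recognised, and with 1 library per sample and target no test between samples was made. A tile counted as enriched at 14 RPM per kb or more, a level whose Poisson p is 0.0451 when 1000000 reads fall evenly on 120 Mb and 1 kb is counted. The libraries differed in the density of an ordinary tile. The median tile had 5.69 RPM per kb of H3K4me3 in *bam* testis and 1.60 in S2 cells, and 4.69 RPM per kb of H3K36me3 in *bam* testis and 1.33 in S2 cells. For H3K27me3 the median tile had 6.97 in *bam* testis and 5.76 in S2 cells, and for Pol II 5.96 in *bam* testis and 4.16 in S2 cells. The *bam* testes were crosslinked with formaldehyde and sonicated, whereas S2 chromatin was prepared in digestion buffer, so sample and preparation cannot be told apart.

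H3K27me3 covered *wg* and most of *hh* in both samples, and *dpp* carried less of it, mainly in S2 cells. The *wg* interval had 21.9 RPM per kb (21.0 to 22.8) in *bam* testis and 21.7 (20.7 to 22.7) in S2 cells. For *hh* the density was 19.4 RPM per kb (18.4 to 20.4) in *bam* testis and 16.7 (15.6 to 17.8) in S2 cells. The *dpp* interval had 10.3 RPM per kb (9.81 to 10.8) in *bam* testis and 13.4 (12.8 to 14.1) in S2 cells. Over the whole intervals the order of density was thus *wg*, *hh* and *dpp* in both samples. In *bam* testis the order of *wg* and *hh* depended on the low-coordinate end of the *hh* interval, described further on. Without its first 4 kb, *hh* had 22.8 RPM per kb (21.6 to 24.0) in *bam* testis and 20.4 (19.1 to 21.8) in S2 cells. These Poisson intervals overlapped those of the whole *wg* interval in both samples. With the first 4 kb of *wg* left out too, *wg* had 21.8 (20.8 to 22.7) in *bam* testis and 23.2 (22.1 to 24.3) in S2 cells. In S2 cells *wg* then stood above *hh* without overlap. In bulk samples, a mark on fewer cells and less of the mark per cell cannot be told apart. Among non-overlapping blocks as long as each interval, 0.474% of the 4008 blocks of 30 kb were at or above *wg* in *bam* testis and 1.82% in S2 cells. The share at or above *hh* was 1.83% of the 6015 blocks of 20 kb in *bam* testis and 5.77% in S2 cells. For *dpp* it was 14.6% of the 2671 blocks of 45 kb in *bam* testis and 9.55% in S2 cells, so *dpp* was not among the most H3K27me3-rich blocks in either sample.

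**Figure D1:**
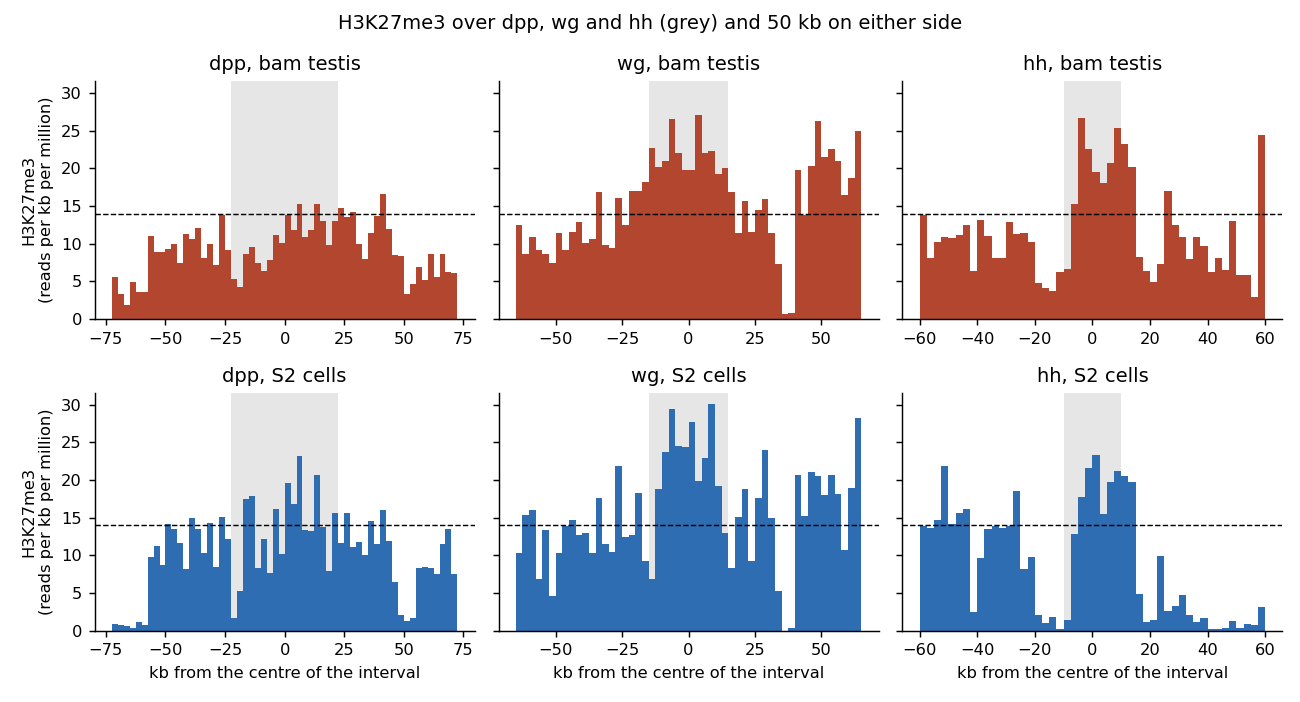
H3K27me3 density in steps of 2.5 kb, in RPM per kb, against the distance from the centre of each interval in kb, with *bam* testis above S2 cells; grey marks the interval and the dashed line 14 RPM per kb. The steps inside *wg* lie between 19.3 and 27.03 in *bam* testis and between 6.91 and 30.1 in S2 cells, and those inside *dpp* between 4.29 and 15.2 in *bam* testis and between 1.73 and 23.2 in S2 cells.

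Enriched tiles were counted in each interval. In *bam* testis, 51 of 60 *wg* tiles, 28 of 40 *hh* tiles and 23 of 90 *dpp* tiles were enriched in H3K27me3, where 12.5% of all tiles were. In S2 cells the counts were 49 for *wg*, 21 for *hh* and 41 for *dpp*, where 19.9% of all tiles were enriched. As shares of the interval these were 85.0% of *wg*, 70.0% of *hh* and 25.6% of *dpp* in *bam* testis, and 81.7% of *wg*, 52.5% of *hh* and 45.6% of *dpp* in S2 cells. Past the first 4 kb of *hh* the share was 87.5% in *bam* testis and 65.6% in S2 cells. Enrichment in both samples was found in 45 *wg* tiles, 21 *hh* tiles and 18 *dpp* tiles, against 8.29% of all tiles. Every enriched *hh* tile of S2 cells was thus enriched in *bam* testis too. Tiles at 14 RPM per kb or more in *bam* testis and under 7 in S2 cells numbered 3 in *wg*, 2 in *hh* and 0 in *dpp*, against 1.35% of all tiles. The opposite pattern was found in 7 *dpp* tiles and in no tile of *wg* or *hh*, against 2.28% of all tiles. The 7 of 90 *dpp* tiles are 7.78% of that interval. Under a stricter limit, a Poisson p of 0.001 given the depth of each library, 13 *dpp* tiles were enriched in *bam* testis and 25 in S2 cells. The share of all tiles at this limit was not computed, so these counts are not read as a difference between the samples.

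Each interval was compared with the 50 kb on either side, which needs no scaling between libraries. The *hh* interval had 1.93 times the H3K27me3 density of its flanks in *bam* testis (1.82 to 2.05) and 2.22 in S2 cells (2.05 to 2.40). For *wg* the ratio was 1.59 in *bam* testis (1.51 to 1.67) and 1.54 in S2 cells (1.46 to 1.63). For *dpp* it was 1.19 in *bam* testis (1.12 to 1.26) and 1.48 in S2 cells (1.39 to 1.58). H3K27me3 therefore stood above both flanks together at each gene and in each sample, least at *dpp* in *bam* testis. That last ratio depended on the flank length, since with flanks of 20 kb the *dpp* interval had 0.893 times their density in *bam* testis and 1.07 in S2 cells. The 20 kb next to *dpp* carried H3K27me3 themselves, as the profiles show, and the low values lay further out.

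**Figure D2:**
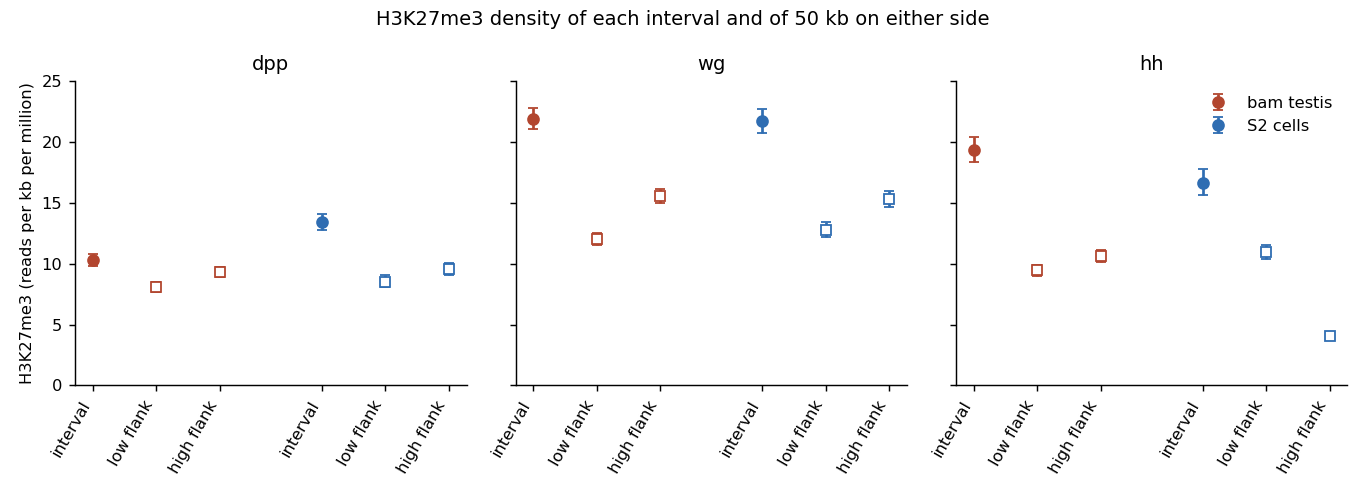
H3K27me3 density of the interval (filled circles) and of the 50 kb on its low- and high-coordinate side (open squares) for each gene, in RPM per kb, with *bam* testis left of S2 cells and exact 95% Poisson intervals for counting error as bars. The *hh* interval at 16.7 in S2 cells stands over flanks at 11.0 and 4.04, and the *dpp* interval at 10.3 in *bam* testis over flanks at 8.04 and 9.31.

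The flanks of a gene were not alike. The high-coordinate flank of *hh* had 4.04 RPM per kb of H3K27me3 in S2 cells, so the interval stood at 4.12 times that flank (3.71 to 4.58) and at 1.52 times the low-coordinate one (1.40 to 1.65). In *bam* testis the corresponding ratios were 1.82 (1.70 to 1.95) and 2.05 (1.91 to 2.20). The flanks of *wg*, where other Wnt genes lie in Release 6, were the richest, at 12.0 on the low side and 15.6 on the high side in *bam* testis, and at 12.8 on the low side and 15.3 on the high side in S2 cells. In the high flank of *wg*, 7 tiles held no read in any ChIP library, and leaving them out changed no ratio beyond its interval. In all, 12 tiles in the flanks of *wg* held under 10 reads summed over the ChIP libraries. Ratios without all of these were not computed.

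The unbroken stretch of H3K27me3 was longest at *wg*. With densities averaged over 5 tiles, a run at 14 RPM per kb or more extended over 40 kb in *bam* testis (chr2L:7287001-7327000) and contained the whole interval at 20.7 RPM per kb. In S2 cells the run was 26 kb long (chr2L:7297501-7323500), with 23.7 RPM per kb, and held 86.7% of the interval. The samples differed at both ends of *wg*. The first 3 tiles (chr2L:7295001-7296500), chosen after their values were seen, held 24, 82 and 40 H3K27me3 reads in *bam* testis and 2, 5 and 5 in S2 cells. Their density was 26.1 RPM per kb (22.0 to 30.7) in *bam* testis and 2.88 (1.49 to 5.03) in S2 cells, a ratio of 9.07 (5.04 to 18.0). The last tile (chr2L:7324501-7325000), chosen in the same way, held 33 reads in *bam* testis and 2 in S2 cells, a ratio of 12.3 (3.15 to 105.8). Without the first 3 tiles, *wg* had 21.7 in *bam* testis and 22.7 in S2 cells.

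At *hh* the stretch in *bam* testis was 21.5 kb long (chr3R:18953501-18975000), with 22.0 RPM per kb, and ended 5 kb past the high-coordinate end of the interval. S2 cells had 2 runs that together held 75.0% of the interval, and the longer of them covered 8.5 kb (chr3R:18954001-18962500) at 21.9 RPM per kb. The highest *hh* tile of *bam* testis held 88 reads (47.2 RPM per kb, chr3R:18957001-18957500), where S2 cells had 36. In S2 cells the highest tile was chr3R:18967501-18968000 with 60 reads (43.2 RPM per kb), where *bam* testis had 72. Across the 40 *hh* tiles the H3K27me3 profiles of the samples had a Spearman rho of 0.859. Over the 90 *dpp* tiles it was 0.607 and over the 60 *wg* tiles 0.516, beside 0.674 over all tiles. These are descriptions of neighbouring tiles that share the libraries and the mappable sequence.

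At *dpp* the mark was broken up. Runs covered 14.4% of the interval in *bam* testis, in 3 pieces, and 50.0% in S2 cells, in 6 pieces. The longest was 4 kb in *bam* testis (chr2L:2454501-2458500), with 17.0 RPM per kb, and 8 kb in S2 cells (chr2L:2442501-2450500), with 20.0. In S2 cells the highest *dpp* tile reached 31.7 RPM per kb, and in *bam* testis 25.2, so no *dpp* tile came near the highest *wg* tiles at 45.0 in *bam* testis and 51.8 in S2 cells.

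Over whole intervals, H3K27me3 differed between the samples beyond counting error under both scalings at *dpp*. The density of *dpp* in *bam* testis was 0.768 times that in S2 cells (0.718 to 0.822), and 0.634 times after each density was divided by the median tile of its own library. The ratio for *wg* was 1.01 (0.950 to 1.07), and 0.834 (0.785 to 0.887) after that division. The first of these rested on the ends of the *wg* interval, since without 2.5 kb at either end it was 0.916 (0.858 to 0.978) before any division. For *hh* it was 1.16 (1.07 to 1.26), but 0.960 (0.883 to 1.04) after the division, so its direction turned with the scaling.

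The low-coordinate ends of the *dpp* and *hh* intervals differed from the rest of those intervals, a feature noticed in the data. The first 4 kb carried marks of active transcription in both samples and little H3K27me3. In the first 4 kb of *hh*, H3K4me3 was at 34.1 RPM per kb in *bam* testis and 77.0 in S2 cells, and H3K36me3 at 21.1 in *bam* testis and 46.4 in S2 cells. H3K27me3 there was at 5.77 in *bam* testis and 1.53 in S2 cells. In the first 4 kb of *dpp*, H3K4me3 was at 11.4 in *bam* testis and 27.8 in S2 cells, and H3K36me3 at 14.9 in *bam* testis and 24.0 in S2 cells, with H3K27me3 at 4.69 in *bam* testis and 1.53 in S2 cells. Of the S2 RNA-seq reads, 894 of the 895 in the *hh* interval and 152 of the 166 in the *dpp* interval lay in these 4 kb. Which gene the reads there belong to was not determined.

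**Figure D3:**
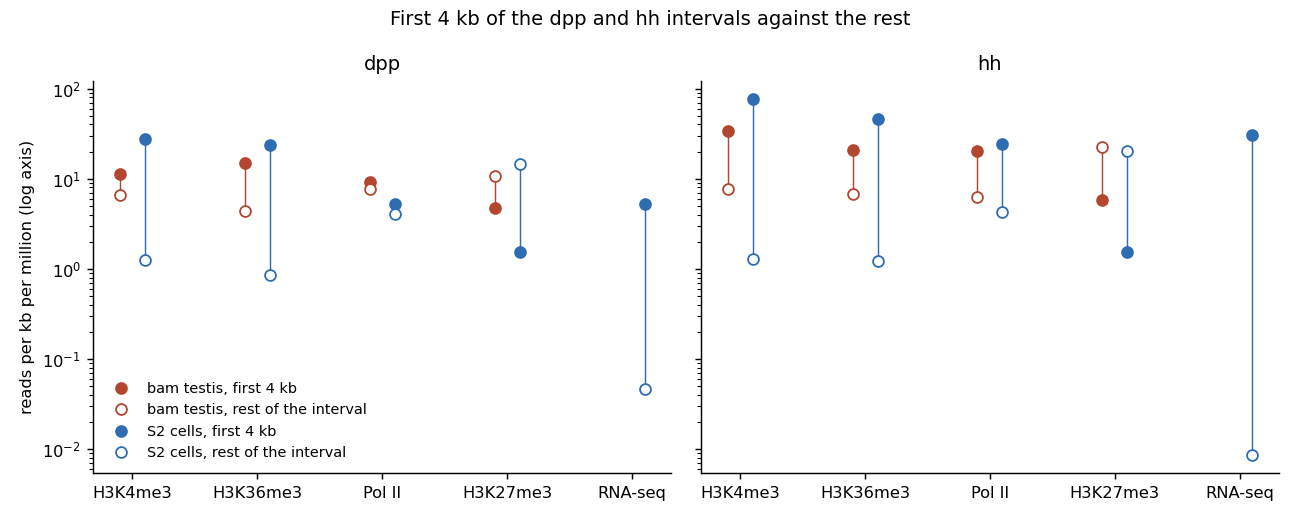
Density in RPM per kb (log axis) of each target in the first 4 kb (filled) and in the rest (open) of the *dpp* and *hh* intervals, with *bam* testis left of S2 cells; RNA-seq is from S2 cells. H3K27me3 is lower in the first 4 kb than in the rest in both samples (for *hh*, 5.77 against 22.8 in *bam* testis and 1.53 against 20.4 in S2 cells), and the other targets are higher there.

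Past those 4 kb, S2 cells held few RNA reads from any of the genes. The rest of the *dpp* interval had 14 reads in 82 tiles, 0.0468 RPM per kb (0.0256 to 0.0786), in 11 tiles with a read. The rest of *hh* had 1 read in 32 tiles, 0.00857 RPM per kb (0.000217 to 0.0478), and the whole *wg* interval 8 reads in 60 tiles, 0.0366 RPM per kb (0.0158 to 0.0721). No *wg* tile reached 1 RPM per kb of RNA, and neither did any tile in the flanks of *wg*, whereas 25.6% of all tiles did. The Poisson intervals of these densities overlapped, so outside the first 4 kb of *dpp* and *hh* a difference in RNA between the genes was not detectable at this depth. The 50 kb on either side of *wg* held 10 reads, and the interval had 2.67 times their density (0.915 to 7.50), a difference not detectable at this depth. Over the whole intervals, RNA-seq was at 0.506 RPM per kb for *dpp* and 6.14 for *hh*, or 0.101 times the flanks of *dpp* (0.0863 to 0.118) and 0.563 times those of *hh* (0.524 to 0.603), nearly all of it from the first 4 kb.

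Leaving out the first 4 kb, which were low in H3K27me3, necessarily raised the ratios to the flanks. The rest of *hh* had 22.8 RPM per kb in *bam* testis and 20.4 in S2 cells, 2.27 times the flanks in *bam* testis (2.13 to 2.41) and 2.72 in S2 cells (2.52 to 2.95). The rest of *dpp* had 10.8 RPM per kb in *bam* testis and 14.6 in S2 cells, 1.25 times the flanks in *bam* testis (1.18 to 1.33) and 1.61 in S2 cells (1.51 to 1.71). The ratio of *bam* testis over S2 cells was 0.744 (0.695 to 0.797) for the rest of *dpp* and 1.11 (1.02 to 1.21) for the rest of *hh*, the second of these being 0.919 (0.845 to 1.00) after division by the median tiles. The lower H3K27me3 density of *dpp* in *bam* testis was thus present with and without the low-coordinate end.

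Enriched H3K4me3 tiles were more frequent in the *hh* interval than among all tiles in both samples, as were enriched H3K36me3 tiles in *bam* testis. In *wg*, H3K4me3 tiles were less frequent than among all tiles in both samples, and H3K36me3 tiles in S2 cells. The H3K36me3 share of *wg* in *bam* testis was near that of all tiles. For H3K4me3 in *bam* testis there were 9 in *dpp*, 3 in *wg* and 7 in *hh*, or 10.0%, 5.00% and 17.5% of the intervals, against 10.6% of all tiles. In S2 cells there were 2 in *dpp*, none in *wg* and 6 in *hh*, where they made up 15.0%, against 7.46% of all tiles. For H3K36me3 in *bam* testis there were 7 in *dpp*, 8 in *wg* and 11 in *hh*, or 7.78%, 13.3% and 27.5%, against 16.3% of all tiles. In S2 cells there were 6 in *dpp*, none in *wg* and 7 in *hh*, where they made up 17.5%, near the 16.1% of all tiles. All the enriched tiles of S2 cells lay in the first 4 kb of *dpp* and *hh*. In *bam* testis, 6 H3K4me3 tiles and 3 H3K36me3 tiles of *dpp*, and 1 H3K4me3 tile and 5 H3K36me3 tiles of *hh*, lay past them. As those 4 kb were set apart for holding these marks, the counts past them are a description and were not read against all tiles.

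In S2 cells H3K4me3 was at 1.25 RPM per kb in the rest of *dpp*, 1.23 in *wg* and 1.30 in the rest of *hh*, or 0.780, 0.767 and 0.812 times the median tile. In *bam* testis it was at 6.64 in the rest of *dpp*, 6.61 in *wg* and 7.73 in the rest of *hh*, or 1.17, 1.16 and 1.36 times the median tile. H3K36me3 in *bam* testis was at 0.939 times the median tile in the rest of *dpp*, 1.61 times in *wg* and 1.45 times in the rest of *hh*. In S2 cells it was at 0.640, 0.650 and 0.922 times the median tile, so *wg* lay above an ordinary tile in *bam* testis and below one in S2 cells.

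By RPM per kb, *bam* testis had 5.32 times the H3K4me3 density of S2 cells in the rest of *dpp* (4.07 to 7.04), 5.39 times in *wg* (3.94 to 7.53) and 5.95 times in the rest of *hh* (3.93 to 9.36). Leaving out the first 4 kb, where S2 cells had the higher H3K4me3 density, necessarily raised the ratios of *dpp* and *hh*. The median tile of the H3K4me3 library itself was 3.56 times higher in *bam* testis than in S2 cells. After division by the median tiles the ratios were 1.50 in the rest of *dpp* (1.15 to 1.98), 1.52 in *wg* (1.11 to 2.12) and 1.67 in the rest of *hh* (1.10 to 2.63). The median H3K4me3 tile held 4 reads in *bam* testis and 1 in S2 cells, so this divisor was coarse. The intervals leave that out, so no excess in *bam* testis is read from these divided ratios. The flanks of *wg* had 6.01 RPM per kb of H3K4me3 in *bam* testis and 1.08 in S2 cells, so the contrast by RPM per kb was not confined to the interval. H3K36me3 differed most between the samples at *wg*, where *bam* testis had 7.56 RPM per kb and S2 cells 0.863. This was a ratio of 8.76 (6.85 to 11.3), or 2.48 (1.94 to 3.21) after the division. The median H3K36me3 tile held 4 reads in *bam* testis and 2 in S2 cells, so this divisor was coarse too. The flanks of *wg* differed in the same way, with 6.44 RPM per kb of H3K36me3 in *bam* testis and 0.823 in S2 cells. The interval was at 1.17 times its flanks in *bam* testis (1.04 to 1.32) and 1.05 in S2 cells (0.802 to 1.36). All 8 *wg* tiles enriched in *bam* testis were under 7 RPM per kb in S2 cells, as were 5 tiles of *hh* and 3 of *dpp*, or 13.3%, 12.5% and 3.33% of the intervals, against 4.32% of all tiles. In the flanks of *wg* 6.50% of the tiles showed this pattern. Over whole intervals with the low-coordinate ends included, the direction for *dpp* turned with the scaling, with 1.96 by RPM per kb but 0.550 after the division for H3K4me3, and likewise 1.84 but 0.520 for H3K36me3. For *hh* the whole-interval H3K4me3 ratio was 0.791 (0.686 to 0.913), opposite to that of its rest.

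**Figure D4:**
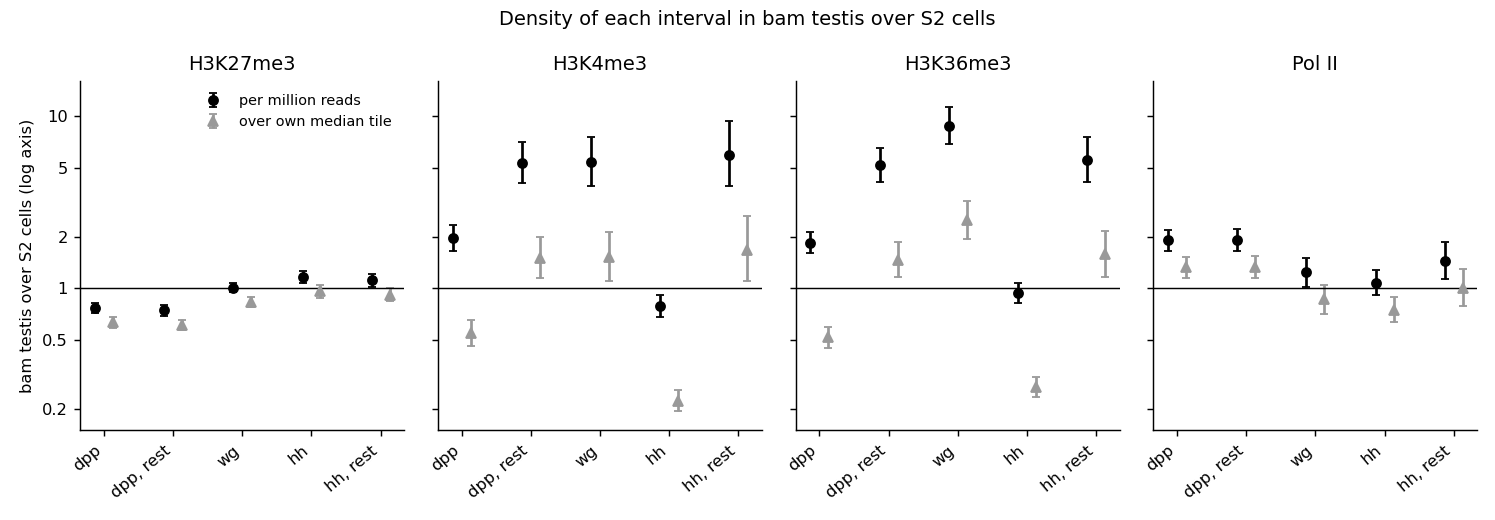
Density in *bam* testis over that in S2 cells (log axis) for the 4 ChIP targets, with the whole intervals and, for *dpp* and *hh*, the rest past the first 4 kb; circles are ratios by RPM per kb, triangles those after division by the median tile of each library, bars exact 95% intervals for counting error. H3K4me3 in *wg* is at 5.39 by RPM per kb and at 1.52 after the division, and H3K27me3 in *dpp* at 0.768 and 0.634. The bars take in no error of the median tiles.

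Over the whole intervals, Pol II of *bam* testis was 1.90 times that of S2 cells in *dpp* (1.65 to 2.18), 1.24 times in *wg* (1.02 to 1.50) and 1.08 times in *hh* (0.910 to 1.28), and after division by the median tiles 1.32, 0.864 and 0.753 times, so the directions for *wg* and *hh* turned with the scaling. Enriched Pol II tiles in *bam* testis numbered 7 in *dpp*, none in *wg* and 8 in *hh*, or 7.78%, 0% and 20.0% of the intervals, where 13.2% of all tiles were enriched. In S2 cells there were 2 in *dpp*, 1 in *wg* and 6 in *hh*, or 2.22%, 1.67% and 15.0%, where 11.9% were. Of these, 6 in *dpp* and 2 in *hh* in *bam* testis, and 1 in *dpp* in S2 cells, lay past the first 4 kb. In *dpp* the tile chr2L:2451001-2451500, 31 kb from the low-coordinate end, was the highest Pol II tile in both samples and was picked for that. It held 23 reads in *bam* testis, 34.3 RPM per kb (21.7 to 51.4), and 57 reads in S2 cells, 59.2 RPM per kb (44.9 to 76.7). As a description of a tile so picked, this was 4.00 times the 5 kb on either side in *bam* testis (2.44 to 6.30) and 12.5 times in S2 cells (8.83 to 17.6). The reads lay on both strands, with 22 distinct 5' ends in *bam* testis and 51 in S2 cells. The ratio of *bam* testis over S2 cells was 0.579 (0.340 to 0.954). At this tile S2 cells held 1 H3K4me3 read and 8 H3K27me3 reads, 5.76 RPM per kb, and 1 RNA read, while *bam* testis held 6 H3K4me3 reads and 18 H3K27me3 reads, 9.65 RPM per kb. In S2 cells H3K27me3 in this tile was 0.392 times that of the rest of *dpp* (0.169 to 0.775), and in *bam* testis 0.890 times (0.526 to 1.41).

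In *wg* the tile chr2L:7307001-7307500, 12 kb from the low-coordinate end, held 9 Pol II reads in *bam* testis, 13.4 RPM per kb (6.13 to 25.5), and 47 in S2 cells, 48.8 RPM per kb (35.9 to 64.9). In S2 cells this was 14.9 times the 5 kb on either side (10.0 to 22.1) and the enriched tile counted above. The ratio of *bam* testis over S2 cells in this tile was 0.275 (0.118 to 0.567), in a tile picked for its S2 value. H3K27me3 was not interrupted there: it stood at 37.5 RPM per kb (29.3 to 47.4) in *bam* testis and 23.7 (16.3 to 33.3) in S2 cells. S2 cells held 3 H3K4me3 reads, no H3K36me3 read and 1 RNA read in the tile. The *wg* tile and the *dpp* tile thus had Pol II in S2 cells without enriched H3K4me3 and with RNA under 1 RPM per kb, as did 2.47% of all tiles.

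**Figure D5:**
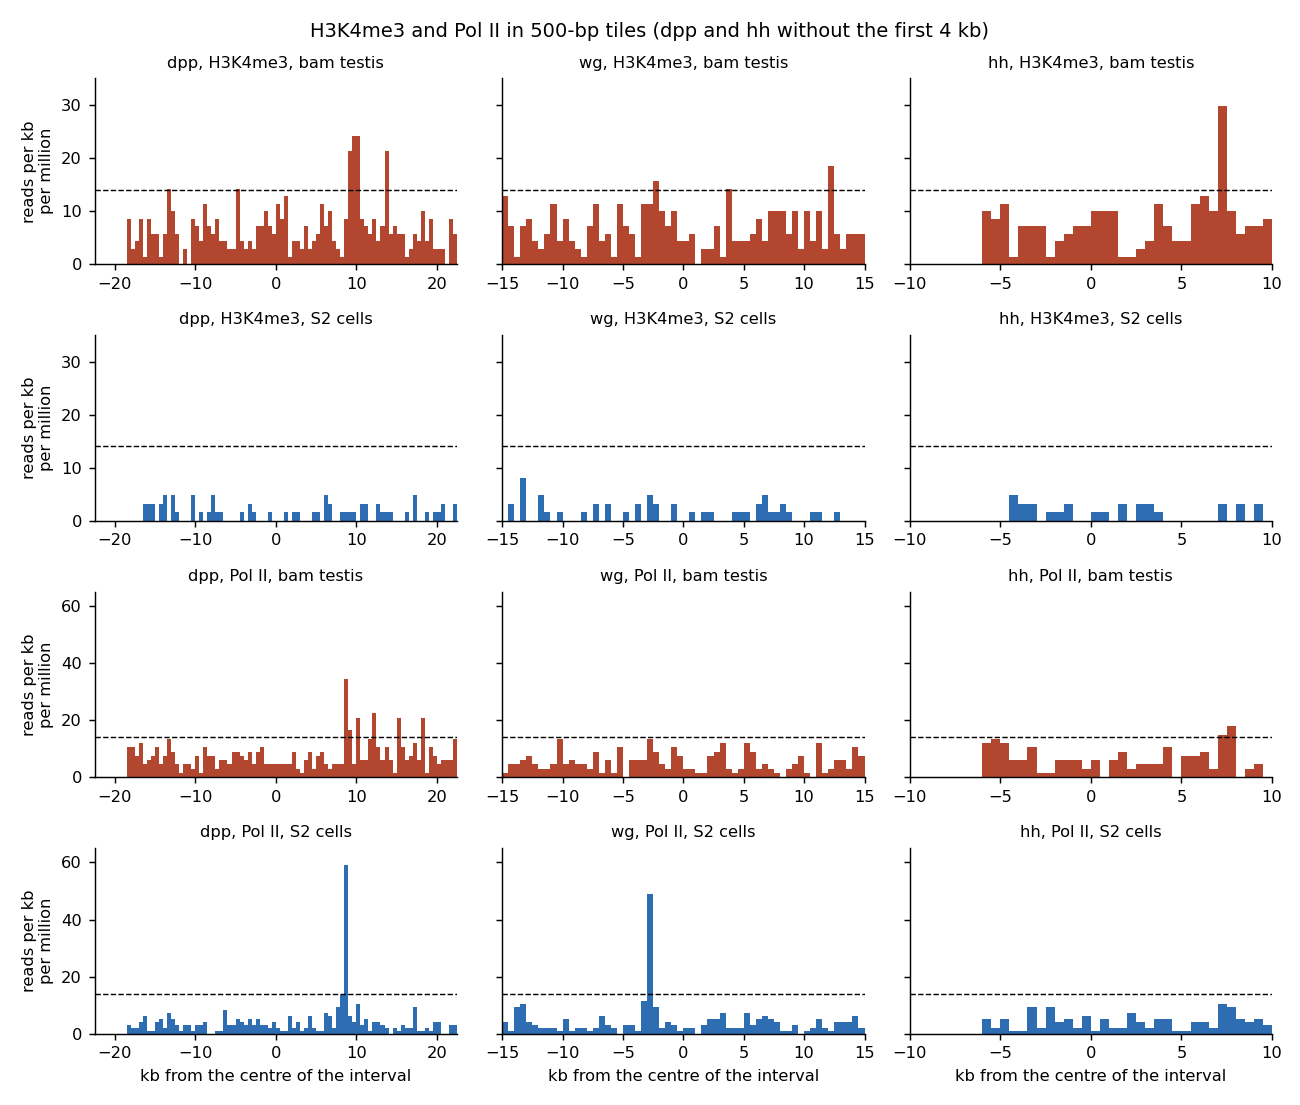
H3K4me3 (upper panels) and Pol II (lower panels) in 500-bp tiles, in RPM per kb, against the distance from the centre of each interval in kb, with *bam* testis above S2 cells and *dpp* and *hh* without their first 4 kb; the dashed line is 14 RPM per kb. Pol II of S2 cells stands alone at 59.2 in *dpp* and 48.8 in *wg*, and H3K4me3 of *bam* testis reaches 24.2 in *dpp* and 29.9 in *hh* where no tile of S2 cells exceeds 4.80.

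H3K4me3 of *bam* testis formed local maxima that S2 cells did not have, higher in *dpp* and *hh* than in *wg*. Tiles at 14 RPM per kb or more in *bam* testis and under 7 in S2 cells were not particular to these genes. They made up 7.78% of *dpp*, 5.00% of *wg* and 5.00% of *hh*, against 5.38% of all tiles. The highest *wg* tile (chr2L:7322001-7322500), picked for that value, held 13 reads in *bam* testis, 18.5 RPM per kb, and 0 in S2 cells. A *dpp* tile at chr2L:2456001-2456500 held 15 reads in *bam* testis and 1 in S2 cells. The main *dpp* maximum was in the 3 tiles beside the Pol II tile (chr2L:2451501-2453000), chosen after their values were seen. They held 15, 17 and 17 reads in *bam* testis and 1, 1 and 0 in S2 cells. The density over these 1.5 kb was 23.2 RPM per kb (17.2 to 30.7) in *bam* testis and 1.07 (0.129 to 3.85) in S2 cells. In *bam* testis this was 3.86 times the rest of *dpp* (2.80 to 5.23). H3K27me3 over the same 3 tiles was at 14.1 RPM per kb (11.2 to 17.6) in *bam* testis and 16.3 (12.7 to 20.7) in S2 cells. In *bam* testis this was close to the limit for enriched tiles. The single tiles there had 14.5, 11.8 and 16.1, so the middle one was not enriched in H3K27me3.

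In *hh* the highest H3K4me3 tile of *bam* testis past the first 4 kb was chr3R:18967001-18967500, 17 kb from the low-coordinate end, picked for that value. It held 21 reads in *bam* testis, 29.9 RPM per kb (18.5 to 45.6), and 2 in S2 cells, 3.20 RPM per kb (0.388 to 11.6). In *bam* testis this was 4.72 times the 5 kb on either side (2.79 to 7.66), and 2.73% of all tiles reached that density. H3K27me3 in the tile was at 29.0 RPM per kb (21.8 to 37.8) in *bam* testis and 30.9 (22.4 to 41.7) in S2 cells, at or above the level of the interval. Pol II held 10 reads in *bam* testis and 10 in S2 cells. Past the first 4 kb this tile was also the highest *hh* tile for Pol II in S2 cells, and the next one (chr3R:18967501-18968000) the highest in *bam* testis, with 12 reads in *bam* testis and 9 in S2 cells. In S2 cells this maximum, at 10.4 RPM per kb, was not enriched. Tiles elsewhere in *hh* held 9 Pol II reads in S2 cells, so the place of the S2 maximum is uncertain. Over the 2 neighbouring tiles together Pol II was at 16.4 RPM per kb (10.3 to 24.8) in *bam* testis and 9.87 (5.94 to 15.4) in S2 cells. No RNA read of S2 cells fell in these tiles.

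Tiles enriched in both H3K4me3 and H3K27me3 were few. In *bam* testis there were 2 in *dpp*, 2 in *wg* and 1 in *hh*, or 2.22%, 3.33% and 2.50% of the intervals, where 0.612% of all tiles carried both marks. In S2 cells there were none in any of the genes, where 0.0569% of all tiles did. The tiles of *dpp* began at 2451501 and 2452501 and that of *hh* at 18967001, within the H3K4me3 maxima described above, and those of *wg* began at 7307501 and 7313501 on arm 2L. The *wg* tiles held 11 and 10 H3K4me3 reads where 10 were needed, and none was left under the stricter limit. Whether both marks were on the same chromatin or in different cells of the testis cannot be told apart in these libraries.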

How the data were processed

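The analysis used processed ChIP-seq read files of *bam* testis and S2 cells (4 targets each) and 1 RNA-seq file of S2 cells. Per the labels and methods, the authors aligned the ChIP reads to dm3 with ELAND, allowed up to 2 mismatches and kept uniquely mapped reads. The methods state this for all reads, in a section that closes with the ChIP-seq data. Their RNA-seq section names no aligner. The deposited files give other information than counts, namely the position and strand of each read, without normalization, so every read count was made here. At most 3 identical reads were kept, ChIP reads were shifted by 80 bp inward and RNA-seq reads were not shifted. Reads were counted in 500-bp tiles of 6 arms and scaled to 1000000 kept reads of the library. The intervals of *dpp*, *wg* and *hh*, the flanks of 50 kb and the lists were chosen with earlier results of these data known. All 3 genes are described whatever their values.

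Exact Poisson and conditional binomial (Clopper-Pearson) intervals at 95% were computed with scipy 1.17.1, numpy 2.4.6 and pandas 2.3.3 in Python 3.11.15, and figures with matplotlib 3.10.9; the counting and interval code was tested on simulated data. At 14 RPM per kb a tile needed between 9 and 27 reads. Alternatives were no shift, 1 copy or all copies of a read, thinning to the shallowest library, reads on the arms as the total, flanks of 20 kb, intervals without 2.5 kb at either end, leaving out tiles without ChIP reads, the stricter Poisson limit of 0.001, 1000-bp tiles, and averages over 9 tiles. Chosen after the data were seen were *dpp* and *hh* without the first 4 kb and division by each library's median tile. The H3 library, RNA-seq of testis, the microarrays and other genes of the 3 pathways were not analysed here, nor was any sequence.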

Additional observations from a re-analysis of the deposited data

How the results depend on the processing

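No paired analysis was possible because each sample and target had 1 library. Of 742 recomputed values, 603 stayed within the interval of the reported value, or within 1.5 times of a reported count, 123 moved further and 16 changed direction. Counting reads on the arms, all copies of reads, or no tiles lacking ChIP reads moved none of the main results. Without the shift, tiles with both marks in *bam* testis numbered 1 in *dpp* and 4 in *wg*, and with 1 copy of each read 1 in *dpp* and 1 in *wg*. With 1 copy the RNA of *hh* was 0.616 times that of its flanks, and after thinning the H3K27me3 of *dpp* in *bam* testis was 1.11 times its flanks. Under the stricter Poisson limit H3K27me3 tiles of *dpp* numbered 13 in *bam* testis and 25 in S2 cells, and tiles with both marks in *bam* testis 1 in *dpp* and 0 in *wg*. With 1000-bp tiles there were 0 in *dpp*, 0 in *wg* and 1 in *hh*. Shares of all tiles under these settings were not computed, so the counts are a description.

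With flanks of 20 kb, *dpp* stood at 0.893 times its flanks for H3K27me3 in *bam* testis and at 1.07 in S2 cells, and changed direction for H3K4me3 (1.02 in *bam* testis, 3.17 in S2 cells), H3K36me3 (1.02 in *bam* testis, 3.57 in S2 cells), Pol II in S2 cells (1.38) and RNA (148). For *hh* the ratios were 0.891 for H3K4me3 in S2 cells, a change of direction, and 0.397 for RNA. Without 2.5 kb at either end, the ratios of *bam* testis over S2 cells were 5.43 for H3K4me3 and 2.70 for H3K36me3 in *dpp*, 0.916 for H3K27me3 in *wg*, and 0.963 for H3K4me3 and 1.41 for H3K36me3 in *hh*. Ratios to the flanks were then 1.71 for *wg* and 2.46 for *hh* for H3K27me3 in S2 cells, 0.0227 for RNA of *dpp*, 0.220 for RNA of *hh* and, with a change of direction, 0.916 for H3K4me3 of *hh* in S2 cells.

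Without the first 4 kb, the ratios of *bam* testis over S2 cells were 5.32 for H3K4me3 and 5.18 for H3K36me3 in *dpp*, and in *hh* 5.95 for H3K4me3, a change of direction, 5.57 for H3K36me3 and 1.45 for Pol II. Ratios to the flanks for H3K27me3 were 1.61 for *dpp* in S2 cells and, for *hh*, 2.27 in *bam* testis and 2.72 in S2 cells. For RNA they were 0.00939 for *dpp* and 0.000786 for *hh*, and for H3K4me3 of *hh* they turned to 0.983 in *bam* testis and 0.109 in S2 cells. This alternative removes the 4 kb that hold these reads.

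After division by the median tile, the ratios of *bam* testis over S2 cells for H3K27me3, H3K4me3, H3K36me3 and Pol II were 0.634, 0.550, 0.520 and 1.32 in *dpp*, 0.834, 1.52, 2.48 and 0.864 in *wg*, and 0.960, 0.223, 0.267 and 0.753 in *hh*. Of the ratios that differed from 1 beyond counting error before the division, those that changed direction were H3K4me3 and H3K36me3 of *dpp*, Pol II of *wg* and H3K27me3 of *hh*. Apart from this division and the removed ends, the cause of these changes was not tested. Depth limits single tiles most: 1 read was worth between 0.536 and 1.60 RPM per kb in the ChIP libraries. Median tiles are whole reads too, as few as 1 for H3K4me3 in S2 cells, and their error is in no interval.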

Other observations

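The 50 kb on the high-coordinate side of *hh* differed between the samples more than the gene itself. H3K27me3 there was at 10.6 RPM per kb (10.2 to 11.1) in *bam* testis and 4.04 (3.72 to 4.39) in S2 cells. Of its 100 tiles, 26 were enriched in *bam* testis, where 12.5% of all tiles were, and 11 in S2 cells, where 19.9% were. Tiles at 14 RPM per kb or more in *bam* testis and under 7 in S2 cells numbered 12, against 1.35% of all tiles. None showed the opposite pattern, against 2.28% of all tiles. The last 2.5 kb of this flank, picked as its highest step in *bam* testis, reached 24.5 RPM per kb there against 3.17 in S2 cells. The 5 kb next to the interval differed little, with steps at 23.2 and 20.2 in *bam* testis and 20.6 and 19.7 in S2 cells. This flank was singled out after its values were seen. Pol II of the flank was at 11.9 RPM per kb (11.1 to 12.7) in *bam* testis and 19.6 (18.7 to 20.5) in S2 cells. Enriched Pol II tiles numbered 29 in *bam* testis, where 13.2% of all tiles were enriched, and 43 in S2 cells, where 11.9% were. S2 cells had 11.1 RPM per kb of RNA there. Which genes carry these values was not determined.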
